A study of Rattus norvegicus with 72 samples.

Results

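The whole kidney 3 days after loss of the opposite kidney is described here, from the 4 nephrectomy and 4 sham libraries labelled whole kidney and 72 h, which are 8 of the 72 libraries of the series. All rats were adult male Sprague-Dawley animals, an outbred strain with no induced mutation, kept on normal chow. In the nephrectomy group the right kidney was cut out after its artery, vein and ureter had been tied, and in the sham group only the right renal pedicle was dissected, both under general anesthesia. RNA of a whole kidney was made into strand-specific libraries and sequenced from both ends. Whether each library stands for its own rat is not stated in the labels. The p-values therefore measure only the spread among these libraries, part of which may be technical. The labels do not say which kidney of a sham rat was taken.

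Removal of a kidney makes the one that stays behind grow. In the adult most of this growth is enlargement of cells that already exist, above all in the proximal tubule, with a smaller share of cells entering the cell cycle. Entry into S phase is driven by E2F transcription factors, which turn on genes of DNA replication. Genes of mitosis come on later in the cycle, through promoters with CCAAT boxes bound by NF-Y and a short element called CHR that is read by the DREAM and MuvB complexes. New membrane needs sterols, and cells short of sterols raise the genes of cholesterol synthesis through SREBP2. Adrenal steroids and the circadian clock also set the level of many kidney transcripts, among them genes of sodium and solute transport.

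The 8 libraries held 29.94 to 42.97 M (1e+06) counts assigned to genes, with a median of 36.79 M, and 48.4 to 60.8% of these counts fell on the 37 mitochondrial genes. Reads without a unique place made up 51.5 to 69.5% of reads, with the highest share in sham 1 (libraries are named by group and replicate number). The tissue label held: proximal tubule transport genes, loop of Henle genes and podocyte genes were all expressed in each library. The unit of level is CPM, a gene's counts per 1e+06 of all gene counts, after scaling with TMM factors of 0.991 to 1.221. Of markers of neighbouring tissues, 19 liver genes together reached 28.8 to 40.9 CPM after nephrectomy and 34.2 to 50.7 CPM after sham surgery. The 8 fat genes reached 82.4 to 194 and 87.1 to 187 CPM. The 10 adrenal genes reached at most 1.74 CPM, with the medullary genes Th and Dbh at 0 in all 8 libraries.

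Some libraries stood apart in a way that touches the results. Nephrectomy 4 was the highest of the 8 libraries for all 18 genes of the list of endoplasmic reticulum (ER) chaperones, which fold secreted and membrane proteins. The mean log2 CPM of that list was 7.06 in nephrectomy 4, 5.8 to 5.92 in the other nephrectomy libraries and 5.92 to 6.20 in the sham libraries. Sham 2 was the lowest of the 8 for 41 of 43 mitosis genes. Sham 1 had the highest mean of the 13 protein-coding mitochondrial genes, 10.69 against 10.01 to 10.04 in the other sham libraries and 9.69 to 10.38 after nephrectomy. Sham 2 was also the lowest for 27 of 40 matrix genes. Nephrectomy 1 was the highest of the 8 for 6 of 8 fat genes. The mean log2 CPM of the fat list was 3.61 there, 1.5 to 2.7 in the other nephrectomy libraries and 1.84 to 2.62 in the sham libraries. For several lists the median without 1 library is given beside it.

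A single gene passed when the spread was shared over all 24 whole kidney libraries, and 281 passed when the 72 h libraries were fitted alone. The first, called the shared fit below, is edgeR's quasi-likelihood test with 6 group means (3 times, 2 kinds of surgery) and an adjusted p under 0.05 over all genes tested. It called 1 of 15678 genes (0.00638%), and 815 (5.2%) had an unadjusted p under 0.05, of which 470 (3%) were higher and 345 (2.2%) lower. The 5.2% is near the share of 0.05 that would arise without any difference. The second, called the 72 h fit, is the same test on the 8 libraries of 72 h and was an alternative setting. It called 281 of 14915 genes (1.88%), of which 200 (1.34%) were higher and 81 (0.543%) lower after nephrectomy. The common biological coefficient of variation, the spread between libraries of a group, was 0.334 at 24 h, 0.219 at 48 h and 0.150 at 72 h, against 0.248 for the 24 libraries together. The shared fit thus judged the 72 h difference by a wider spread than the 72 h libraries show.

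Each result below names its fit. Of the 281 genes called in the 72 h fit, 237 had an unadjusted p under 0.05 in the shared fit. All 281 had groups that do not overlap, meaning that the 4 nephrectomy libraries lay all above or all below the 4 sham libraries. The 281 were chosen by a test on these same libraries, which the shared fit holds too. Both counts, 237 and 281, thus follow largely from the choice and are no further support. Over all 15678 genes 1687 (10.8%) had such groups, 836 (5.33%) with nephrectomy above and 851 (5.43%) below. These shares, with the 1.34% called higher and 0.543% called lower in the 72 h fit, are the background for each list count below. The called differences were larger upwards than downwards: the median log2 fold change of the 200 higher genes was 1.12 (0.29 to 2.86), and that of the 81 lower genes was -0.54 (-2.0 to -0.27). The median over all genes of the shared fit was 0.001. At 48 h, in other libraries with their own sham group, 165 of the 200 higher and 68 of the 81 lower genes had the same sign, and at 24 h 182 and 74 did. The share of all genes with the same sign was not computed, so these counts are a description without a background.

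Replicate numbers moved the 72 h count. With the number as a block, which the libraries' deviations give some ground for, the 72 h fit called 450 genes (3.02%), 299 higher and 151 lower, and 257 of the 281 remained. Leaving out 1 library gave 33 calls (without nephrectomy 3) to 568 (without sham 1). The count was 41 without sham 4, 49 without nephrectomy 1, 49 without nephrectomy 4, 130 without sham 2, 142 without nephrectomy 2 and 171 without sham 3. Of the 281 genes, 28 were called whichever library was left out. DESeq2 on the 8 libraries called 849 (5.69%; 481 or 3.22% higher and 368 or 2.47% lower), among them 280 of the 281.

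**Figure D1:**
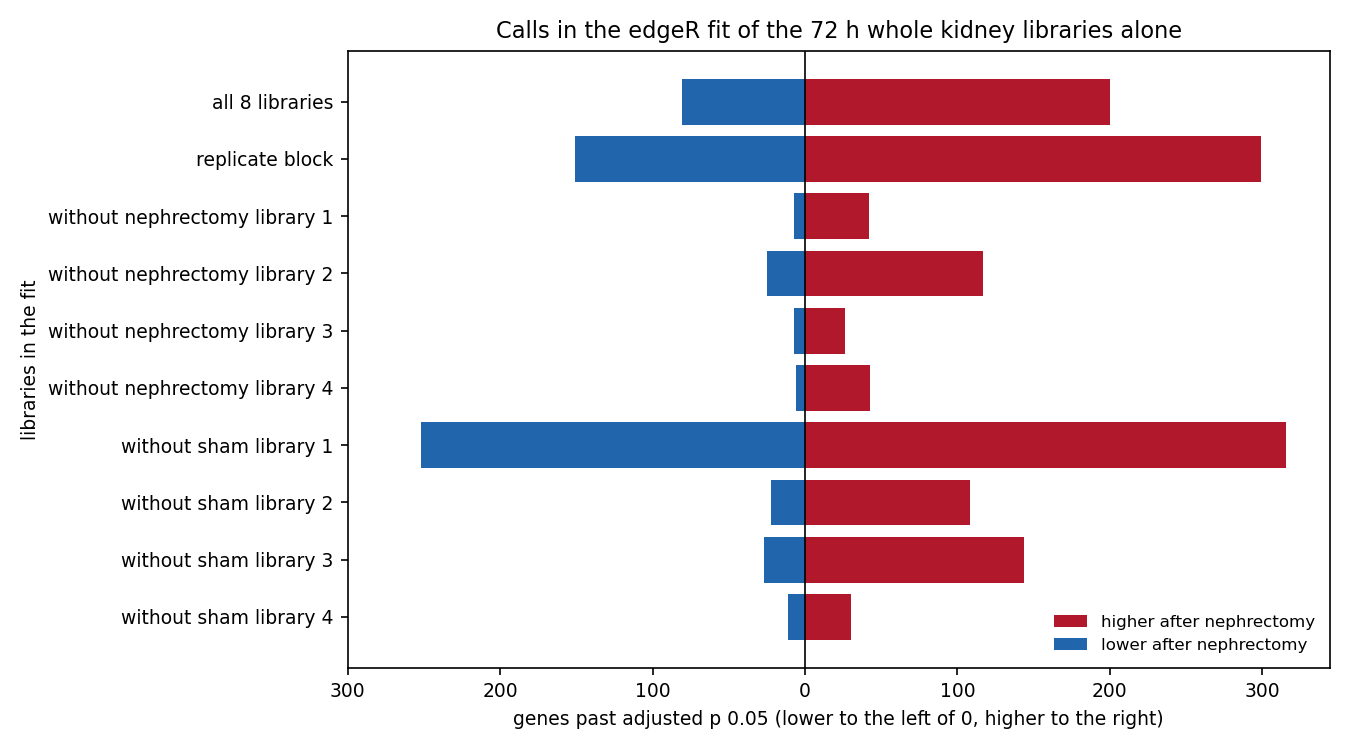
Number of genes past an adjusted p of 0.05 in edgeR fits of the 72 h whole kidney libraries alone (x axis, genes higher after nephrectomy to the right of 0 and lower to the left), for all 8 libraries, with the replicate number as a block, and with each library left out (y axis). All 8 libraries gave 200 higher and 81 lower genes, and leaving out 1 library gave between 33 and 568 in all.

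Sgk1, the kinase that raises sodium uptake in the distal nephron in response to aldosterone and glucocorticoids, was the one gene called in the shared fit. Its level was 125, 110, 134 and 199 CPM in nephrectomy 1 to 4 and 72.0, 44.7, 47.3 and 60.7 CPM in sham 1 to 4. The lowest nephrectomy library thus lay well above the highest sham library, and nephrectomy 4 was the highest. The log2 fold change was 1.34 ± 0.21 (SE; 2.53-fold, adjusted p 0.0245), and 0.017 was the adjusted p in the 72 h fit. The call of the shared fit was lost with the replicate number as a block (adjusted p 0.111), while the 72 h fit with the block kept it (0.00794). It was also lost without nephrectomy 3 (0.0712), nephrectomy 4 (0.189), sham 2 (0.271), sham 3 (0.264) or sham 4 (0.11). Over 20 other settings the log2 fold change was 1.13 to 1.47 and the adjusted p 8.18e-09 to 1.

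Other corticosteroid targets stood beside it. Tsc22d3, which encodes the glucocorticoid-induced leucine zipper protein GILZ, had 53, 54.3, 60.4 and 102 CPM in nephrectomy 1 to 4 and 31.0, 26.9, 33.2 and 35.6 CPM in sham 1 to 4. Zbtb16, a zinc finger transcription factor induced by glucocorticoids, had 27.0, 17.0, 18.1 and 26.6 CPM after nephrectomy, against 5.07, 2.07, 3.64 and 1.65 CPM after sham surgery. In both genes the groups did not overlap, and for Tsc22d3 nephrectomy 4 stood far above the other 3. Neither passed in the shared fit (Tsc22d3 1.09 ± 0.21, adjusted p 0.231; Zbtb16 2.84 ± 0.57, adjusted p 0.24), and both did in the 72 h fit (0.028 and 0.0101). Zbtb16, at 7.18-fold, was called whichever library was left out of the 72 h fit, and Tsc22d3 in 3 of the 8 cases. Without nephrectomy 4 the log2 fold change of Tsc22d3 in the shared fit was 0.82 (adjusted p 1).

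The rest of the corticosteroid list did not pass in the 72 h fit. Of 18 genes tested, the 72 h fit called 4 higher and 0 lower, beside 1.34% of all genes higher. The 4 were Sgk1, Tsc22d3, Zbtb16 and the clock gene Per1. In the list 13 were above 0, with a median of 0.09. The co-chaperone Fkbp5 differed by 0.55 ± 0.26 (adjusted p 0.912 in the shared fit and 0.141 in the 72 h fit), and it passed in the latter with the replicate block (0.0316), where 5 of the list were called. The mTOR inhibitor Ddit4 differed by 0.94 ± 0.42 (adjusted p 0.898 and 0.0727). Both genes had overlapping groups. Leaving out 1 library gave 2 to 7 calls in the list, and its median was 0.05 without nephrectomy 3 and 0.15 without sham 4.

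The sign of these genes was not the same at each time. At 48 h Sgk1 had 64.5 to 90.5 CPM after nephrectomy and 148 to 229 CPM after sham surgery, a log2 fold change of -1.25 ± 0.21, and at 24 h it differed by 0.88 ± 0.21. The difference of the effect between 72 h and 48 h was tested in the shared fit and passed for 3 of 15678 genes (0.0191%): Sgk1 (2.59 ± 0.29, adjusted p 0.000142), Tsc22d3 (1.95, adjusted p 0.00683) and Zbtb16 (5.18, adjusted p 0.00683). At an unadjusted p under 0.05 the count was 444 (2.83%). Both groups stood at other levels at 48 h than at 72 h. The sham means of Sgk1 were 64.3 ± 4.18, 184 ± 33.6 and 56.2 ± 12.7 CPM (SD, n = 4) at 24, 48 and 72 h, and those after nephrectomy were 118 ± 34.8, 77.6 ± 10.9 and 142 ± 39.2. Tsc22d3 had sham means of 41.8, 119 and 31.7 CPM at these times. Between 72 h and 24 h the effect differed for 0 genes in edgeR's test and for 374 (2.39%) at an unadjusted p under 0.05. That 0 turned on 4 libraries of 24 h, those numbered 3 and 4: without them 1006 genes passed. That fit keeps at 24 h only the libraries numbered 1 and 2 of each group. In these, mitochondrial genes held 66.3 and 64.6% of counts after nephrectomy and 49.2 and 36% after sham surgery. A part of this unlikeness in the 1006 was not tested. No source used here gives the hour of day at which kidneys were taken, and its part in the differences between times was not tested.

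**Figure D2:**
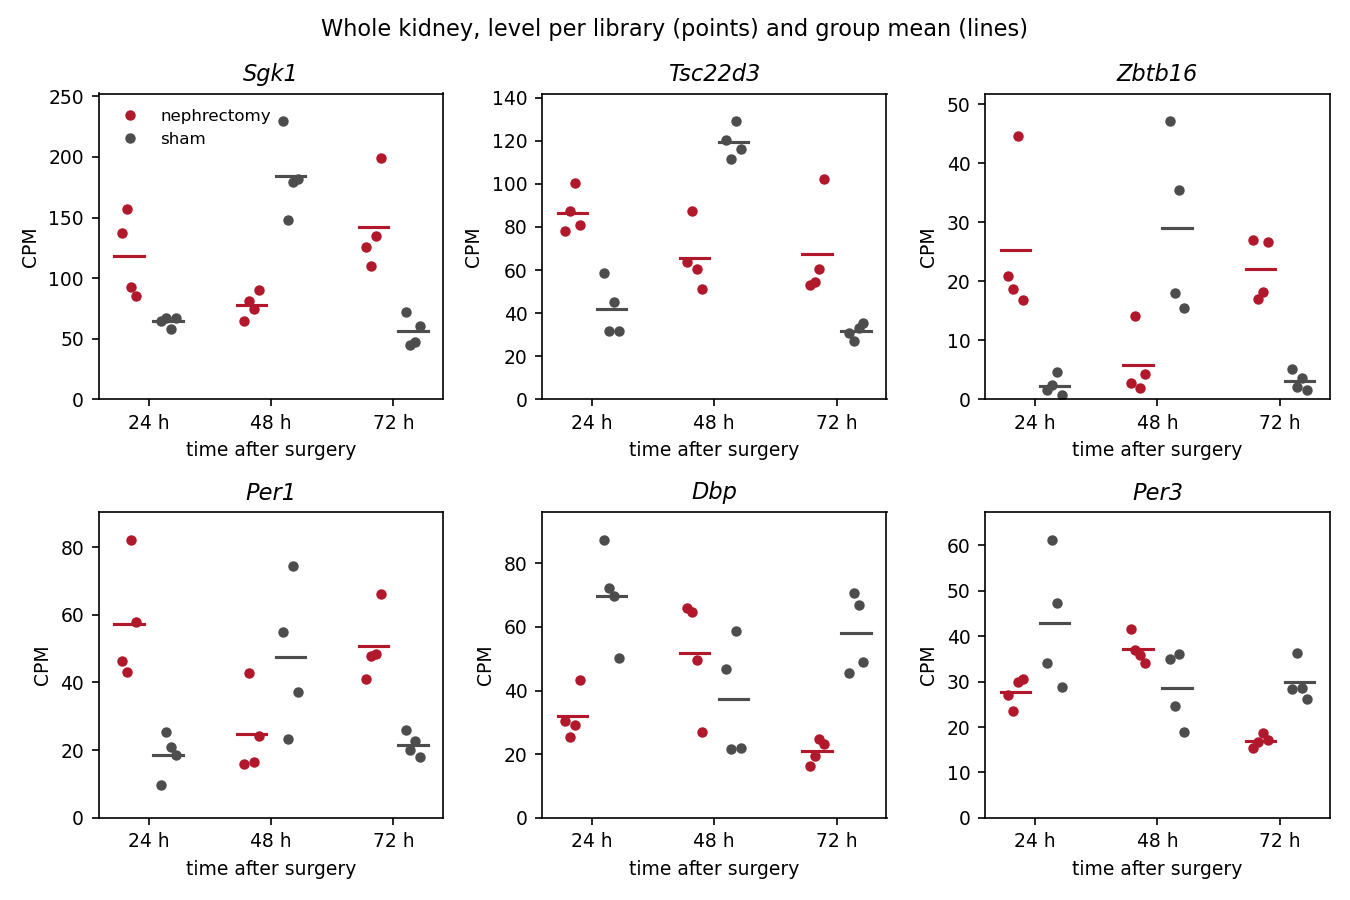
Level in CPM (y axis, linear from 0) of 3 corticosteroid targets and 3 clock genes in each whole kidney library at 24, 48 and 72 h (x axis), nephrectomy in red and sham in grey, with lines at group means. At 72 h all nephrectomy libraries lie above the sham libraries for Sgk1, Tsc22d3, Zbtb16 and Per1 and below them for Dbp and Per3, and at 48 h Sgk1 and Tsc22d3 lie the other way.

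Clock genes were called in both directions. The circadian clock is a loop in which Arntl (BMAL1) with Clock or Npas2 turns on the Per, Nr1d and Dbp genes, whose products feed back on it. Of 19 genes tested the 72 h fit called 4 higher and 6 lower, beside 1.34% and 0.543% of all genes. Groups did not overlap for 13 of the 19, beside 10.8% of all genes, and the list median was -0.35. The block gave 10 calls and leaving out 1 library 3 to 13. The list median was -0.46 without nephrectomy 4 and -0.27 without sham 2. The output regulator Dbp had 16.4, 19.5, 24.7 and 23.1 CPM after nephrectomy, against 45.6, 70.6, 67.0 and 49.1 CPM after sham surgery, a log2 fold change of -1.47 ± 0.30 (adjusted p 0.24 in the shared fit and 0.0101 in the 72 h fit). Per3 had 15.3 to 18.7 CPM against 26.1 to 36.4 (-0.81 ± 0.20), and both were called whichever library was left out of the 72 h fit. Lower in that fit, too, were the repressors Nr1d2 (-0.77 ± 0.23) and Nr1d1 (-1.08 ± 0.51) and the Dbp relatives Hlf (-0.82 ± 0.24) and Tef (-0.57). With 1 library left out Nr1d2 was called in 6 of the 8 cases and Hlf in 2.

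The 4 higher clock genes were Arntl, Npas2, Nfil3 and Per1. A part of clock phase or of steroids in their direction was not tested. Arntl had 24.1, 22.5, 19.7 and 19.1 CPM after nephrectomy, against 15.0, 7.31, 6.81 and 8.44 CPM after sham surgery, so that sham 1 came close to the nephrectomy libraries (1.19 ± 0.39, adjusted p 0.738 in the shared fit and 0.0302 in the 72 h fit). Its partner Npas2 differed by 1.12 ± 0.34 and the repressor Nfil3 by 1.23. Arntl and Npas2 were each called in 1 of the 8 fits with 1 library left out. Per1, which also has glucocorticoid response elements, had 40.9 to 66.1 CPM after nephrectomy and 18.0 to 25.8 CPM after sham surgery (1.23 ± 0.34, adjusted p 0.668 and 0.0101). At 48 h the log2 fold changes of Dbp, Per3, Per1, Arntl and Npas2 were 0.48, 0.38, -0.93, -1.42 and -0.69. For none of these 5 did the difference between 72 h and 48 h pass in the shared fit (adjusted p 0.161 to 0.579).

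Mitosis genes held the largest share of called members among the 47 lists. Of 43 tested the 72 h fit called 27 higher and 0 lower, beside 1.34% of all genes higher, and the shared fit called 0, with 35 at an unadjusted p under 0.05. The nephrectomy libraries lay above all sham libraries for 39 of the 43, beside 5.33% of all genes. The median log2 fold change of the list was 1.20 (quartiles 1.01 to 1.39). The count in the 72 h fit was 34 with the replicate block, 39 in DESeq2 and 5 to 32 with 1 library left out. The mean log2 CPM of the list was 2.64 to 3.03 after nephrectomy and 1.01 to 2.01 after sham surgery. Nephrectomy 4 was the highest library for 36 of the 43 genes. The list median of the shared fit was 1.08 without nephrectomy 4, 1.03 without sham 2 and at most 1.36 with another library left out.

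Many of these genes share letters in the promoter. The windows below are the 250 bases before the RefSeq start of 3 mitosis genes and, after them, of 2 replication genes, in build GRCr8 and written along the gene's strand. They are shown because these genes were called in the 72 h fit and their windows hold the motifs searched. Capitals mark CCAAT (the NF-Y box), TTTGAA (the CHR element) and TTTCCCGC or TTTGGCGC (E2F), each searched on both strands, so that a match on the other strand is printed as its reverse complement (ATTGG for the NF-Y box).
Kntc1 (chr12:38500458-38500707, minus strand): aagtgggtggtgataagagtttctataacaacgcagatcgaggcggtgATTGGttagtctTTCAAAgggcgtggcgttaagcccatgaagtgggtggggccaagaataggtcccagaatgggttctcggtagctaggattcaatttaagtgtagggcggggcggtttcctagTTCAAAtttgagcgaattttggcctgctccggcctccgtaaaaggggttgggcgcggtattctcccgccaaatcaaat
Mki67 (chr1:199952594-199952843, minus strand): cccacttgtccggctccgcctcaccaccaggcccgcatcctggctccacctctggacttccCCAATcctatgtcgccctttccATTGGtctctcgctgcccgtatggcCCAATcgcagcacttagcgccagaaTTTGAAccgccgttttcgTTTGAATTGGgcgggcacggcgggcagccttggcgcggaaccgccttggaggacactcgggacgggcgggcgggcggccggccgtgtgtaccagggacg
Top2a (chr10:84473094-84473343, minus strand): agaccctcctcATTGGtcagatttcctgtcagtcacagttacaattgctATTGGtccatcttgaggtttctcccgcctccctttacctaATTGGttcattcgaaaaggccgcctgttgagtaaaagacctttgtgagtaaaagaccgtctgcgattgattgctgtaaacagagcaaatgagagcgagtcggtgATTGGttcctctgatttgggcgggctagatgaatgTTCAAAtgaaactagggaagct
Mcm5 (chr19:13488563-13488812, plus strand): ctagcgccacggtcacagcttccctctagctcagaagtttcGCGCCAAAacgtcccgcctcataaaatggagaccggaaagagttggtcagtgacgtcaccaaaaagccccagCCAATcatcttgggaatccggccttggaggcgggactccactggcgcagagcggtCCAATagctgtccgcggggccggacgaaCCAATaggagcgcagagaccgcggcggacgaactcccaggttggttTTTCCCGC
Mcm6 (chr13:42404353-42404602, minus strand): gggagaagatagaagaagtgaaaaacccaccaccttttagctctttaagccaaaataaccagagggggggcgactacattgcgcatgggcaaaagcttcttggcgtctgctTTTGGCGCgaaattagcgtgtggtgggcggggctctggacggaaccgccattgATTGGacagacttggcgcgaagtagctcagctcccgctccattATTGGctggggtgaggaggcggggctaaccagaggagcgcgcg

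The letters were counted over whole lists. Of the 43 mitosis genes 36 matched a RefSeq window by symbol, with 37 windows. CCAAT stood in 25 of these (67.6%) and in 34% of all 33469 rat windows, and TTTGAA stood in 17 (45.9%) against 16.2%. The E2F letters stood in 0 of the 37. Among the 27 mitosis genes called in the 72 h fit, 21 matched, and 15 and 11 of their 22 windows held CCAAT and TTTGAA. Of the 40 replication genes 32 matched, with 35 windows: E2F letters stood in 8 (22.9%) against 1.21% of all windows, CCAAT in 20 (57.1%) and TTTGAA in 2 (5.71%). CCAAT was not particular to these 2 lists, as it stood in 16 of 20 windows of the cholesterol list (80%). It stood in 12 of 35 windows of proximal transport genes (34.3%) and 7 of 19 of corticosteroid targets (36.8%). For fatty acid oxidation it was 5 of 19 (26.3%). The SREBP letters searched, TCACCCCAC, stood in 0 of the 20 cholesterol windows and in 0.409% of all windows. In the windows shown, Mki67 and Top2a hold 4 CCAAT boxes each. Such a match is a description of letters and not evidence of a bound site.

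Kntc1, a kinetochore protein of the spindle checkpoint, had the smallest p of the mitosis list. Its level was 10.2, 9.59, 9.74 and 11.6 CPM in nephrectomy 1 to 4 and 3.79, 2.43, 4.82 and 3.19 CPM in sham 1 to 4 (1.53 ± 0.42, adjusted p 0.668 in the shared fit and 0.0101 in the 72 h fit). Kif2c, a kinesin that takes microtubules apart at centromeres, had 3.64 to 5.89 CPM against 1.18 to 1.91 (1.48 ± 0.42). These 2 were called whichever library was left out of the 72 h fit. Iqgap3, a scaffold of dividing cells, had 11.1 to 13.1 CPM after nephrectomy and 1.80 to 5.35 after sham surgery (1.68 ± 0.49). It was called in 5 of the 8 cases with 1 library left out.

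The proliferation antigen Mki67 had 66.3, 60.0, 67.5 and 79.2 CPM after nephrectomy, against 30.3, 14.4, 36.5 and 24.5 CPM after sham surgery. Top2a, the topoisomerase that untangles replicated DNA, had 36.0, 37.5, 44.2 and 58.5 CPM against 20.5, 7.82, 22.0 and 15.5 CPM. For both, sham 2 was the lowest and sham 3 the highest of the sham group, and the groups did not overlap. The differences were 1.37 ± 0.48 and 1.42 ± 0.50, with adjusted p 0.779 for each in the shared fit, 0.023 and 0.0353 in the 72 h fit. The mitotic kinase Aurkb (1.47 ± 0.45), the S and G2 cyclin Ccna2 (1.35 ± 0.42) and Hmmr (1.25 ± 0.37), a spindle and hyaluronan binding protein, were likewise called in the 72 h fit. With 1 library left out Mki67, Aurkb and Ccna2 were each called in 4 of the 8 cases, and Top2a and Hmmr in 3. The smallest differences of the list were those of the kinesin Kif11 and the passenger protein Incenp, whose groups overlapped.

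**Figure D3:**
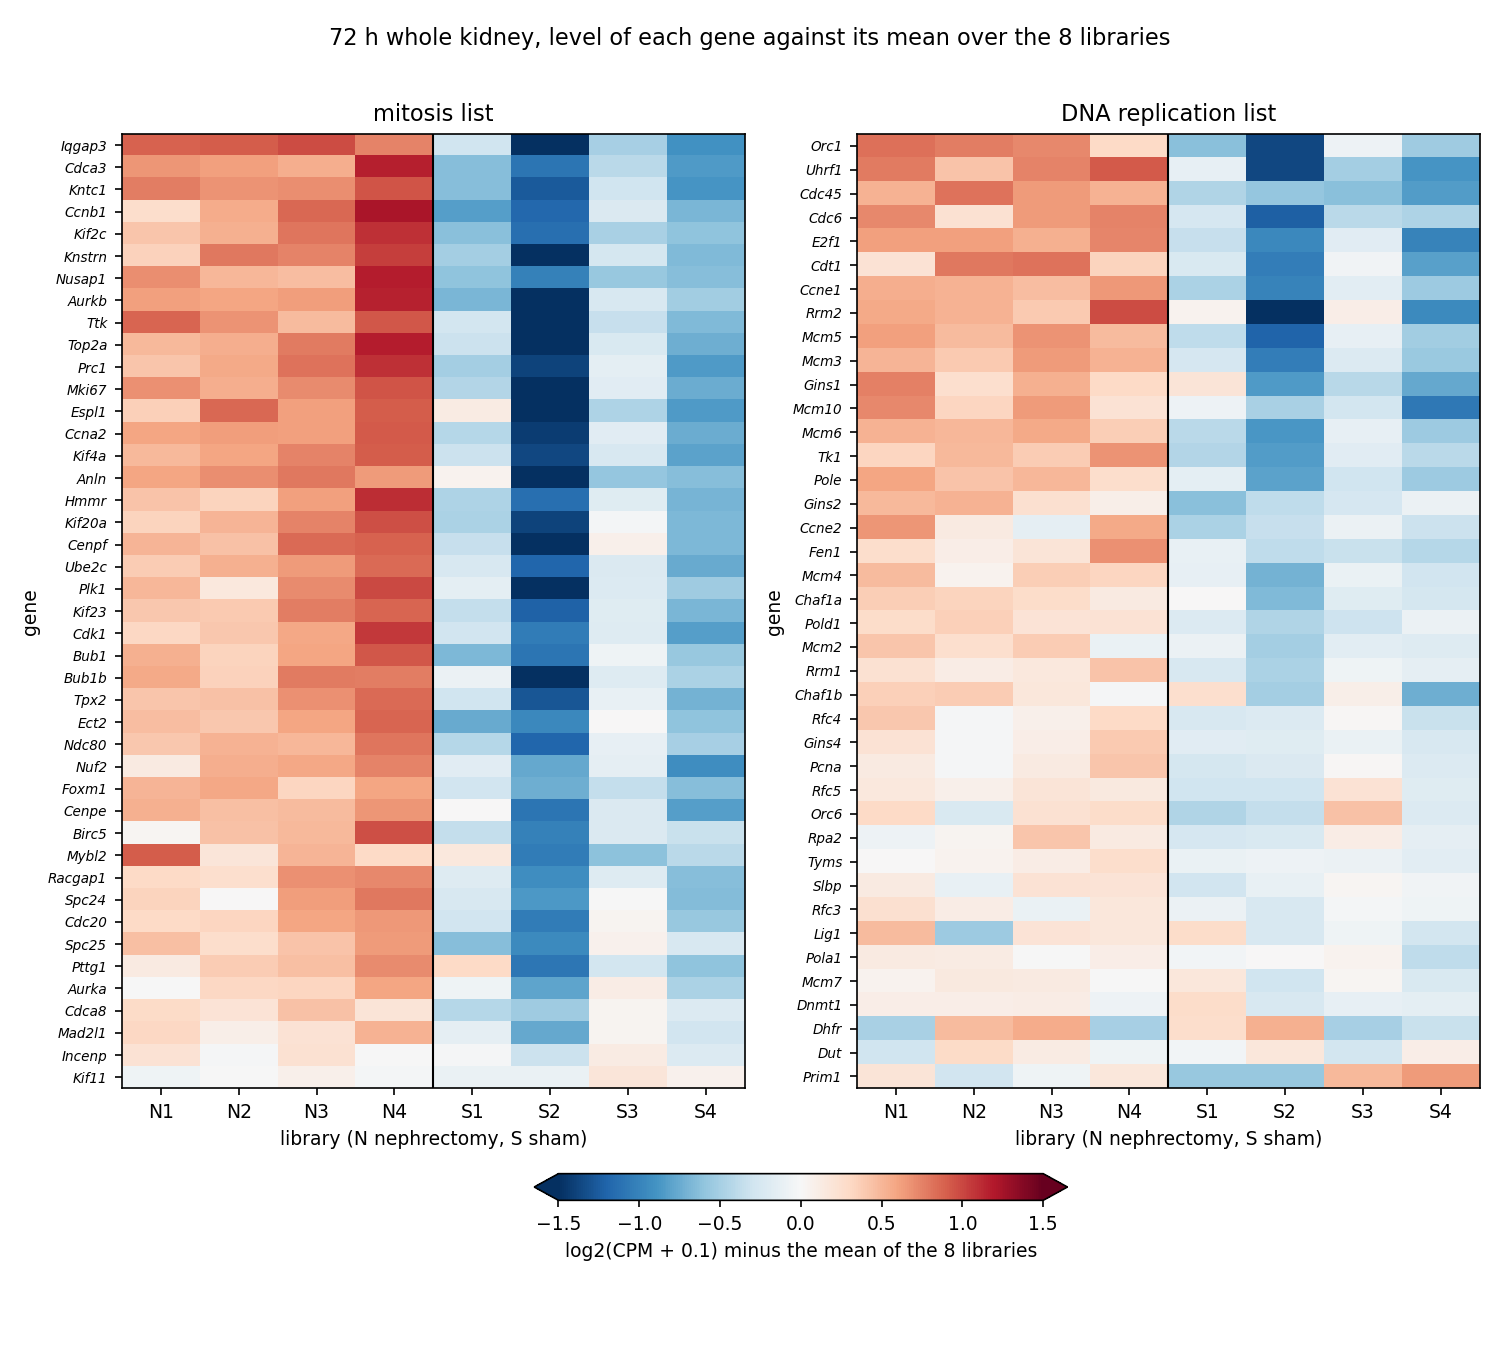
Level of each gene of the mitosis list (left) and the DNA replication list (right) in the 8 whole kidney libraries of 72 h (columns, N nephrectomy 1 to 4 and S sham 1 to 4), as log2(CPM + 0.1) minus the gene's mean over the 8 libraries, with rows ordered by log2 fold change. Red (above the mean) fills the nephrectomy columns for 39 of 43 mitosis genes and 23 of 40 replication genes whose groups do not overlap, and sham 2 is the darkest blue column.

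DNA replication genes differed in the same direction by less. Of 40 tested the 72 h fit called 11 higher and 0 lower, beside 1.34% of all genes higher. In the list 39 were above 0, and the median was 0.54. Nephrectomy libraries lay above all sham libraries for 23, beside 5.33% of all genes. The block gave 14 calls and leaving out 1 library 1 to 16. Cdc45, part of the replicative helicase, had 1.36, 1.69, 1.49 and 1.36 CPM after nephrectomy, against 0.642, 0.577, 0.557 and 0.468 CPM after sham surgery (1.39 ± 0.41), a low level with little spread, and was called whichever library was left out of the 72 h fit. The transcription factor E2f1 had 6.28 to 7.25 CPM against 2.09 to 3.81 (1.23 ± 0.37). The helicase subunits Mcm3 (1.01 ± 0.31), Mcm5 (1.09 ± 0.41) and Mcm6 (0.96 ± 0.30), the polymerase Pole (0.89 ± 0.26) and the thymidine kinase Tk1 (0.92 ± 0.28) were called in the 72 h fit as well. With 1 library left out Tk1 was called in 6 of the 8 cases, Pole in 5, and E2f1 and Mcm3 in 4 each. The origin recognition gene Orc1 had the smallest p of the list in the shared fit (1.46 ± 0.43) and did not pass in the 72 h fit (adjusted p 0.0568), at 0.669 to 1.01 CPM after nephrectomy.

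Histone genes, which are transcribed in S phase, had 6 of 17 members called higher in the 72 h fit, beside 1.34% of all genes. The list had 0 called lower and a median of 0.87. The linker histone Hist1h1a had 16.1 to 30.2 CPM after nephrectomy and 4.83 to 9.96 CPM after sham surgery (1.38 ± 0.44). Histone genes have near-identical copies, between which reads cannot be placed with certainty, so these values are uncertain. Fits without 1 library called 0 to 6 of them, while the block and DESeq2 on the 8 libraries called 11 each. The list median was 0.68 without sham 2 and 1.06 without sham 3.

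Genes that hold the cell cycle moved in both directions. Cdkn1a (p21), an inhibitor of cyclin-dependent kinases and a p53 target, had 6.60, 4.50, 4.95 and 8.26 CPM after nephrectomy, against 2.17, 2.04, 3.30 and 2.45 CPM after sham surgery (1.28 ± 0.40, adjusted p 0.669 in the shared fit and 0.0238 in the 72 h fit). Its relative Cdkn1b (p27) had 18.2 to 20.9 CPM against 23.4 to 27.8 CPM (-0.39 ± 0.28, adjusted p 0.035 in the 72 h fit). These 2 were the only called members among 13 D cyclins and CDK inhibitors. With 1 library left out of the 72 h fit Cdkn1a was called in 3 of the 8 cases. Cyclin D1 (Ccnd1) differed by -0.18 ± 0.22 with overlapping groups, and Myc by 0.14 ± 0.39.

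Of 18 p53 targets, whose median was 0.12, the 72 h fit called 0 lower and 4 higher, beside 1.34% of all genes higher. Beside Cdkn1a they were Plk3, a stress-responsive kinase (1.26 ± 0.42), Tp53inp1 (0.42 ± 0.18) and Btg2, an antiproliferative immediate early gene. Btg2 had 20.5, 15.3, 18.5 and 21.8 CPM after nephrectomy, against 11.7, 10.8, 10.4 and 10.9 CPM after sham surgery (0.80 ± 0.36), and it was called whichever library was left out of the 72 h fit. With the replicate block 3 of the list passed, and Tp53inp1 (adjusted p 0.050013) did not. With 1 library left out Plk3 was called in 3 of the 8 cases and Tp53inp1 in 1. The list median was 0.06 without nephrectomy 4.

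Genes of cholesterol synthesis and uptake were higher by a smaller amount and with little spread. Of 28 tested the 72 h fit called 9 higher and 0 lower, beside 1.34% of all genes higher. In the list 24 were above 0, and the median was 0.39. Nephrectomy libraries lay above all sham libraries for 14, beside 5.33% of all genes. The block gave 10 calls, DESeq2 13 and leaving out 1 library 2 to 11. The mean log2 CPM of the list was 3.92 to 4.07 after nephrectomy and 3.48 to 3.70 after sham surgery. Cyp51, the lanosterol demethylase, had 31.3, 30.3, 31.7 and 40.0 CPM after nephrectomy, against 19.0, 15.1, 19.6 and 19.9 CPM after sham surgery (0.85 ± 0.18, adjusted p 0.24 in the shared fit and 0.011 in the 72 h fit).

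Insig1, which keeps the SREBP escort protein in the ER when sterols are plentiful and is itself an SREBP target, had 19.9, 21.8, 18.4 and 22.0 CPM against 10.4, 9.07, 12.4 and 9.33 CPM (0.99 ± 0.25). Cyp51 and Insig1 were called whichever library was left out of the 72 h fit. Called there with all 8 libraries were also the isoprenoid enzyme Idi1 (0.72 ± 0.18), the methylsterol oxidase Msmo1 (0.51 ± 0.17), the synthase Hmgcs1 (0.60 ± 0.22) and the reductase Dhcr7 (0.54 ± 0.22). With the replicate block Dhcr7 did not pass (adjusted p 0.0551). With 1 library left out Hmgcs1 was called in 4 of the 8 cases, Idi1 in 3, and Msmo1 and Dhcr7 in 1 each.

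Fatty acid synthesis did not pass alongside. The 72 h fit called 0 of 16 genes, the median was 0.17, and with the replicate block 2 passed in that fit. The desaturase Scd2 had 145, 142, 151 and 111 CPM after nephrectomy, against 123, 61.6, 52.0 and 69.5 CPM after sham surgery, so that sham 1 lay inside the nephrectomy range (0.84 ± 0.23, adjusted p 0.668 in the shared fit, 0.0994 in the 72 h fit and 0.043 there with the block). Fatty acid synthase (Fasn) differed by 0.57 ± 0.27, with 88.0 to 134 CPM against 64.0 to 86.2 CPM (adjusted p 0.0728, and 0.0104 with the block). Nephrectomy 1 and sham 1 were highest of their groups for Fasn. The same libraries were highest of their groups in summed fat markers (194 and 187 CPM), and a part of adjoining fat in these values was not tested.

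**Figure D4:**
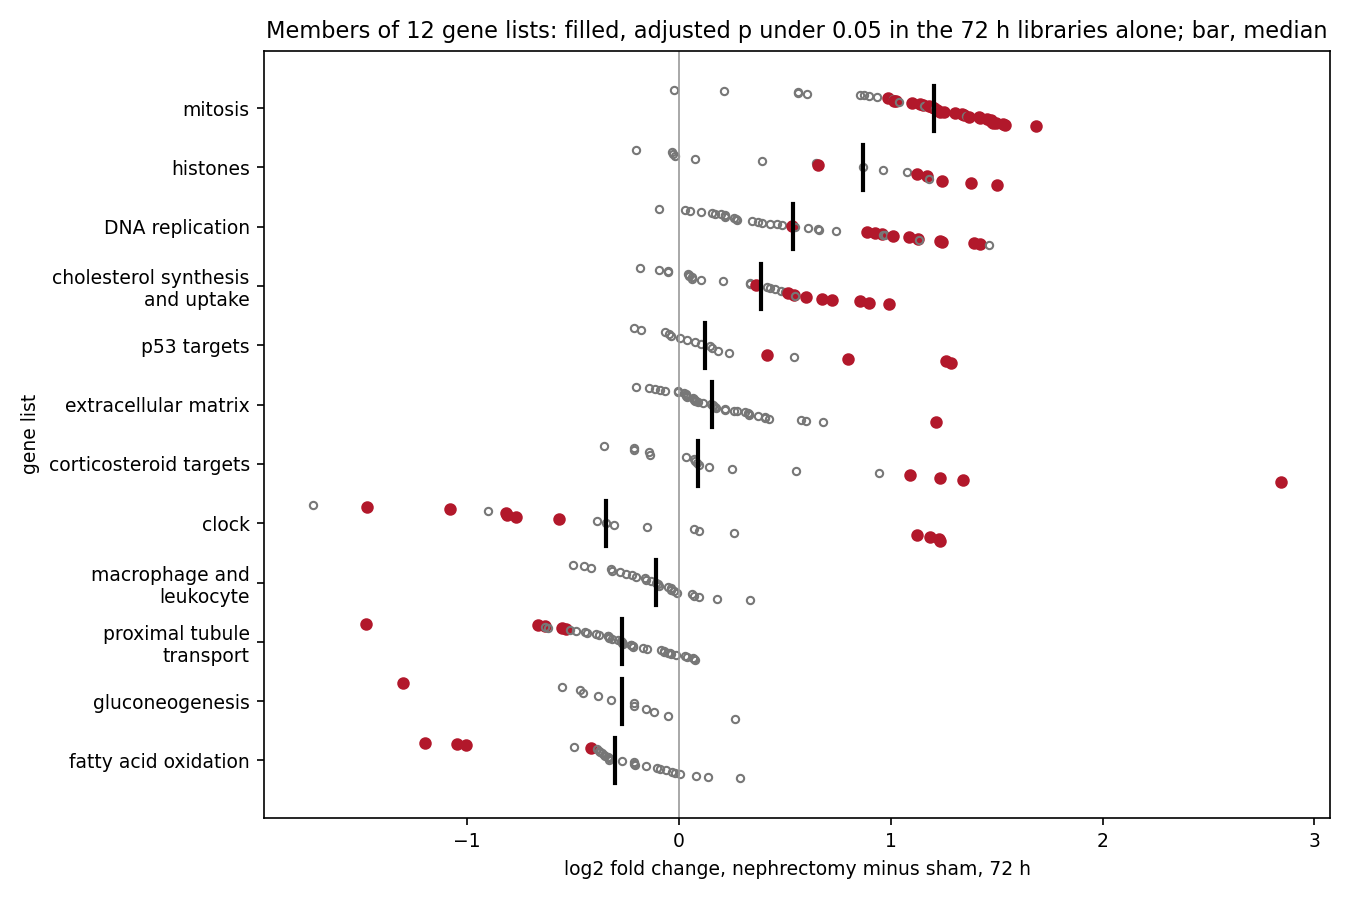
Log2 fold change of nephrectomy against sham at 72 h in whole kidney (x axis, shared fit) for each gene of 12 lists (y axis), filled red where the 72 h fit gave an adjusted p under 0.05, with a bar at the list median. Medians run from 1.20 for mitosis and 0.54 for DNA replication to -0.27 for proximal tubule transport and -0.30 for fatty acid oxidation, and clock genes lie on both sides of 0.

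Proximal tubule transport genes were lower by a small amount. These encode the carriers and endocytic receptors with which this segment takes back filtered solutes and proteins. Of 41 tested the 72 h fit called 0 higher and 5 lower, beside 0.543% of all genes lower, 36 were below 0, and the median was -0.27. The block gave 7 calls and leaving out 1 library 0 to 12. The median was -0.35 without sham 1 and -0.21 without sham 3. In a bulk sample fewer cells of a type and less RNA per cell cannot be told apart. The mean log2 CPM of the list was 6.04 to 6.24 after nephrectomy and 6.19 to 6.61 after sham surgery, with sham 1 inside the nephrectomy range.

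The sulfate carrier Slc13a1 had 46.5, 39.3, 64.8 and 45.1 CPM after nephrectomy, against 86.1, 116, 241 and 102 CPM after sham surgery. Sham 3 was far above the rest, and the groups did not overlap (-1.48 ± 0.42, adjusted p 0.668 in the shared fit and 0.0395 in the 72 h fit). The citrate carrier Slc13a2 had 17.1 to 25.3 CPM against 28.2 to 39.0 CPM (-0.67 ± 0.25), and the GABA and taurine carrier Slc6a13 had 16.8 to 19.2 against 22.5 to 30.3 (-0.53 ± 0.24). The endocytic receptor cubilin (Cubn) had 337 to 442 CPM against 504 to 694 (-0.63 ± 0.23), and Dab2, its adaptor in endocytosis, 81.3 to 92.0 against 110 to 150 (-0.55 ± 0.21). With 1 library left out of the 72 h fit, Slc13a1 and Dab2 were called in 2 of the 8 cases. Slc13a2, Slc6a13 and Cubn were called in 1 each. The phosphate carrier Slc34a1 had non-overlapping groups and did not pass (-0.33 ± 0.24, adjusted p 0.152 in the 72 h fit). The glucose carrier Slc5a2 differed by -0.09 ± 1.02.

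**Figure D5:**
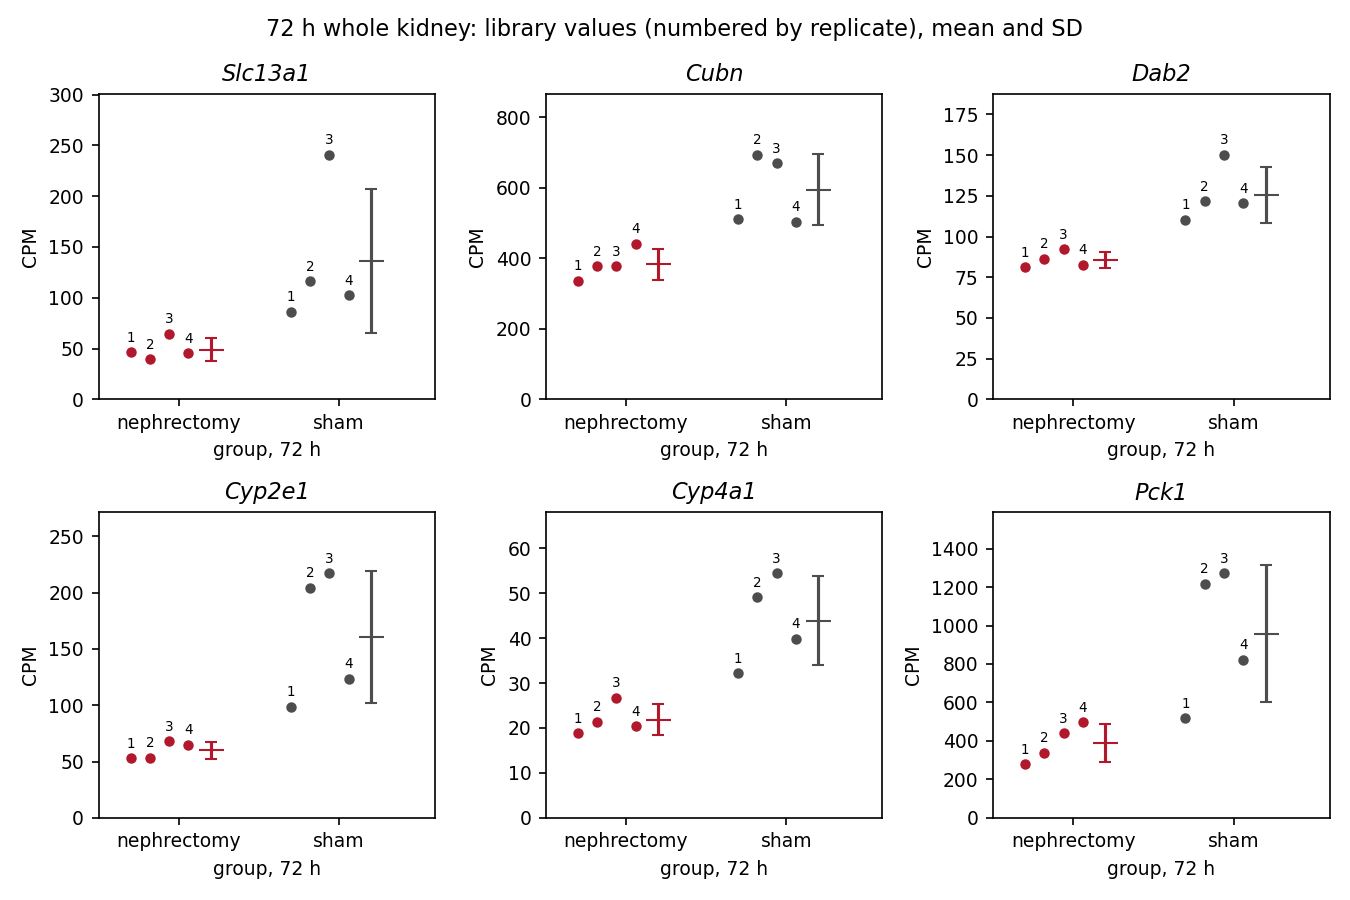
Level in CPM (y axis, linear from 0) of 6 proximal tubule and metabolic genes in the 72 h whole kidney libraries (points, numbered by replicate), with the group mean and SD beside them (n = 4 each). In all 6 panels the nephrectomy libraries lie below the sham libraries, and sham 1 is lowest of the sham group for Slc13a1, Dab2, Cyp2e1, Cyp4a1 and Pck1.

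Metabolic genes of the same segment stood lower too. Of 28 genes for burning fatty acids or targeted by PPAR the 72 h fit called 0 higher and 4 lower. Over all genes 0.543% were called lower. In the list 24 were below 0, and the median was -0.30. The block gave 6 calls, DESeq2 9 and leaving out 1 library 0 to 8. Cyp4a1, a fatty acid hydroxylase and PPARα target, had 18.8, 21.4, 26.7 and 20.5 CPM after nephrectomy, against 32.2, 49.1, 54.5 and 39.9 CPM after sham surgery (-1.01 ± 0.34). The pantetheinase Vnn1 had 9.62 to 14.7 CPM against 15.4 to 36.2 (-1.20 ± 0.44), and the mitochondrial isomerase Ech1 43.4 to 51.3 against 60.2 to 69.8 (-0.42 ± 0.18). With 1 library left out Cyp4a1 was called in 4 of the 8 cases, Ech1 in 2 and Vnn1 in 1. The list median was -0.19 without nephrectomy 4 and -0.37 without sham 1.

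Gluconeogenesis, which the proximal tubule shares with liver, had 11 of 12 genes below 0 and a median of -0.27. That median was -0.39 without sham 1 and -0.18 without sham 3. Pck1, which encodes the key enzyme PEPCK, was the called gene of this list in the 72 h fit, with 278, 338, 439 and 498 CPM after nephrectomy, against 518, 1217, 1272 and 822 CPM after sham surgery (-1.30 ± 0.46, adjusted p 0.045). Nephrectomy 4 and sham 1 lay close to each other there. With 1 library left out of the 72 h fit Pck1 was called in 1 of the 8 cases. Fbp1 (-0.55 ± 0.25) and pyruvate carboxylase (Pc, -0.46 ± 0.21) had an adjusted p of 0.0705 and 0.193 in the 72 h fit. Fbp1 passed there with the replicate block (0.0413), and Pc did not (0.0805).

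Among 10 cytochrome P450 genes of families 1 to 3 the 72 h fit called 2 lower, beside 0.543% of all genes. The list median was -0.33, or -0.55 without nephrectomy 2 and -0.21 without sham 4. Cyp2e1, which oxidizes ethanol and acetone, had 53.2, 53.5, 68.0 and 65.0 CPM after nephrectomy, against 98.5, 204, 217 and 123 CPM after sham surgery (-1.43 ± 0.38). The arachidonic acid epoxygenase Cyp2c23 had 327 to 437 CPM against 503 to 994 CPM (-0.95 ± 0.29). Both belong to families of similar genes, between which reads may be divided. The carbonic anhydrase Car4, of the proximal brush border, had 9.87 to 13.0 CPM against 14.5 to 21.8 CPM (-0.80 ± 0.20, adjusted p 0.0286 in the 72 h fit). With 1 library left out Cyp2e1 was called in 4 of the 8 cases, Car4 in 3 and Cyp2c23 in 2.

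Growth factor and matrix genes mostly did not pass. Of 28 genes of IGF, EGF, HGF, FGF and related signalling the 72 h fit called 0 higher and 2 lower, the fibroblast growth factor Fgf1 (39.2, 40.7, 44.2 and 32.9 CPM against 51.8 to 61.7; -0.51 ± 0.14) and the IGF binding protein Igfbp4 (-0.54 ± 0.27). Over all genes 0.543% were called lower in the 72 h fit. Fgf1 and Igfbp4 were each called in 1 of the 8 fits with 1 library left out. Igf1 differed by -0.01 ± 0.27 and Egf by 0.20 ± 0.14. Ctgf, a matricellular protein and target of YAP and TGFβ, had 39.3, 55.2, 43.0 and 59.5 CPM after nephrectomy, against 17.9, 23.2, 20.4 and 23.5 CPM after sham surgery (1.21 ± 0.36, adjusted p 0.668 in the shared fit and 0.0101 in the 72 h fit). It was called whichever library was left out of the 72 h fit, and it was the one called member of 40 matrix genes (median 0.15) and of 16 YAP and TAZ targets (median 0.08). Over all genes 1.34% were called higher, so 1 call says little about either list. The matrix median was 0.08 without sham 2, and the YAP and TAZ median 0.04 without sham 3 and 0.13 without sham 1. At 48 h Ctgf differed by -1.18. The collagens Col18a1 (0.41 ± 0.24) and Col5a1 (0.37 ± 0.23) had non-overlapping groups with an adjusted p of 0.0588 and 0.0626 in the 72 h fit. With the replicate block Col5a1 passed (0.0363) and Col18a1 did not (0.0573), and DESeq2 called both.

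Markers of other cells and of damage gave few calls. Of 23 macrophage and leukocyte genes 0 were called, and the 25 in the shared fit, the source of all list medians here, had a median of -0.11 and overlapping groups for each. That median was -0.22 without sham 1 and -0.03 without sham 3. Among 20 tubular injury genes the one called was Vnn1, which lies in that list too, and the list median was 0.08, or 0.02 without sham 2. Havcr1 (KIM-1) had 1.23 to 3.70 CPM after nephrectomy, against 1.93, 2.04, 9.60 and 2.03 CPM after sham surgery, and Lcn2 (NGAL) had 1.30 to 1.90 against 1.01 to 1.86. Podocyte genes had 0 of 14 called (median -0.14), loop of Henle and distal tubule genes 0 of 21 (median 0.20) and endothelial genes 1 of 18 (Ehd3, 0.58, list median -0.02). Interferon response genes had 0 of 21 called (median 0.30, with 0.19 without sham 1 and 0.4 without sham 4). For each count of 0 here the tool is edgeR in the 72 h fit. At an unadjusted p under 0.05 in the shared fit 0 macrophage, 1 podocyte, 0 loop and 0 interferon genes passed, and DESeq2 on the 8 libraries called 0, 2, 1 and 1.

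Genes outside the lists made up 191 of the 281. Of the 28 genes called whichever library was left out of the 72 h fit, the following were picked after their values were seen, since the rule for named genes does not cover them: the polymerase Polq of DNA repair (1.28), the mitotic entry kinase Pkmyt1 (1.29), the nuclease Ankle1 (2.11), the centriole kinase Plk4 (1.15), the kinesin Kif22 (1.40) and the condensin subunit Ncapd2 (0.81), which were higher, and Gsta4, a glutathione transferase (-0.55), and Phf3 (-0.45), which were lower (log2 fold changes of the 72 h fit). Named by the rule was Chst3, a chondroitin sulfotransferase, with 5.14, 5.76, 7.40 and 7.07 CPM after nephrectomy, against 2.69, 3.01, 2.96 and 2.41 CPM after sham surgery (1.20 ± 0.25, adjusted p 0.24 in the shared fit and 0.0101 in the 72 h fit). The transcription factor Hlx had 1.66 to 2.42 CPM against 2.67 to 4.28 CPM (-0.88 ± 0.21, adjusted p 0.0415 in the 72 h fit). With 1 library left out of that fit Hlx was called in 1 of the 8 cases. Timd2, of the TIM receptor family, had 6.11 to 6.94 against 7.57 to 13.9 CPM (-0.71 ± 0.17) and did not pass (adjusted p 0.0636 in the 72 h fit, 0.0545 there with the block).

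Dissected glomeruli and S1 tubules of the same time gave no call to set beside these. Those samples were amplified and sequenced in another way, and each tissue was fitted on its own 24 libraries. edgeR called 0 of 21415 genes in glomeruli and 0 of 18124 in S1 tubules at 72 h, with 330 (1.54%) and 1821 (10%) at an unadjusted p under 0.05. The median log2 fold change of the mitosis list was 0.30 in glomeruli and 1.33 in S1 tubules, beside medians of 0.023 and 0.097 over all genes there. That of the cholesterol list was 0.28 and 0.20, that of the proximal transport list -0.23 in S1 tubules, and that of the clock list -0.59 and -0.35. Sgk1 differed by -0.22 ± 0.45 in glomeruli and by 2.84 ± 0.53 in S1 tubules (adjusted p 1 and 0.293), and the difference between tissues was not tested.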

How the data were processed

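RNA of 8 whole kidney libraries (4 nephrectomy, 4 sham, 72 h) was prepared with Qiagen RNeasy, and Illumina's TruSeq Stranded kits of the HT and LT kind served for the libraries, per the labels' protocols. The kit of a single library is not known here, and kit differences were not tested. The authors deposited raw read counts for each gene. The submitters' processing notes list Trimmomatic 0.32, STAR 2.4.0.1, SAMtools and HTSeq. No genome build, annotation or strand setting of the counting was given in these sources. The authors also deposited FPKM values, used in 1 alternative as log2(FPKM + 1). The 5 HTSeq summary entries were left out.

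Tests ran in R 4.3.3 with edgeR 4.0.16 (TMM, filterByExpr with a minimum count of 10, quasi-likelihood F test), adjusted by Benjamini-Hochberg over all genes tested, threshold 0.05. SE was taken as the absolute log2 fold change divided by the root of F. Alternatives were DESeq2 1.42.0, limma 3.58.1 (voom with quality weights, and FPKM), the 72 h libraries alone, other scalings and filters, the replicate block and each library left out. The tests on all 24 libraries were tried on simulated data, with a single dispersion per gene for all times. The 72 h fit was not simulated, so that trial says nothing of its calls. The members, the 47 gene lists (895 of 927 symbols found) and the tests were chosen with earlier results of these data known, so no list is independent evidence. Of 32545 genes 4708 share a symbol with another ID, and the ID with most counts was used. Named genes were the 10 highest and 10 lowest called with at least 5 CPM, the 5 smallest p of each direction, up to 6 members of each list described, up to 3 genes of each difference between times, and fixed genes; some of these are not reported here.

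Same-numbered nephrectomy and sham libraries of 72 h deviated together from their group means (correlations 0.12 to 0.29 over genes, against -0.34 to 0.26 for other numbers; 4 of 8 libraries correlated best with their own number). By the rule that every pair exceeds 0.1 the numbers of 72 h were taken as pairs in the block setting, a hint from the data and not from the labels. The shared fit and the 72 h fit themselves hold no block. At 24 h and 48 h same-numbered libraries correlated by -0.08 to 0.22 and 0.06 to 0.23. The rule was thus not met at those times, which the block of the shared fit also covers. No 2 libraries of a group were alike within sampling noise (12 pairs, smallest chi-square per degree of freedom 18.7). Promoter sequences are RefSeq's, build GRCr8, and bases after the start were not used.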

Additional observations from a re-analysis of the deposited data

Results flagged for a closer look

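Of 110 groups of 4 libraries checked, 10 had a library whose gap to its neighbour was large for the group's range; chance gives about 1 in 20. 5 of the 10 concern nephrectomy 4 and 2 sham 1. In nephrectomy 4 the mean log2 CPM of ER chaperone genes was 7.06 (others 5.8 to 5.92) and that of cholesterol genes 4.07 (others 3.92 to 3.94). The same library had 102 CPM of Tsc22d3 (others 53 to 60.4), 40.0 CPM of Cyp51 (others 30.3 to 31.7) and 13.0 CPM of Car4 (others 9.87 to 10.4). Among single chaperones Hspa5 (BiP), the main ER chaperone, had 328 CPM there, 141 to 171 CPM in the other nephrectomy libraries and 166 to 222 CPM in the sham libraries. Hyou1 had 243 CPM against 81.3 to 110 CPM in the other 7 libraries. In sham 1 the mean of fatty acid synthesis genes was 4.9 (others 4.57 to 4.61) and that of mitochondrially encoded genes 10.7 (others 10.01 to 10.04). Sham 4 had a clock mean of 3.56 (others 3.71 to 3.73). Sham 3 had a loop of Henle mean of 5.81 (others 5.99 to 6.01) and 9.60 CPM of the injury marker Havcr1 (others 1.93 to 2.04).

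The effect of nephrectomy differed between 72 h and 48 h by edgeR's test of the difference for 3 genes: Sgk1 by 2.59, Tsc22d3 by 1.95 and Zbtb16 by 5.18 on the log2 scale.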

How the results depend on the processing

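The number of genes called at 72 h in the shared fit (1) depended on the tool and the libraries: DESeq2 gave 7, voom with sample weights 596, limma applied to log2(FPKM + 1) 0 (303 at an unadjusted p under 0.05), the 72 h libraries alone 281, DESeq2 on these 849, the fit without the 24 h libraries numbered 3 and 4 gave 2, that of 48 and 72 h 2 and the replicate block 0. Without 1 library of 72 h it was 0 to 1. The list members called (1) numbered 5, 128, 0, 90, 170, 2, 2 and 0 in the same order, and 0 to 1 without 1 library. The difference between 72 h and 48 h (3 genes) became 20 in DESeq2, 62 in voom, 1 in limma, 9 in the fit of 48 and 72 h and 6 in that lacking libraries 3 and 4 of 24 h; the block and each library left out gave 3. The difference between 72 h and 24 h (0 genes) became 1006 in the fit lacking libraries 3 and 4 of 24 h. At 24 h that fit keeps only the libraries numbered 1 and 2 of each group. In the 72 h fit (281), DESeq2 gave 849, the replicate block 450, and 1 library left out 33 to 568. Non-overlapping groups (1687) numbered 2094 to 2980 with 1 library left out, where fewer libraries make the criterion easier. In S1 tubules 1 gene passed without nephrectomy 2, and otherwise 0. The cause of these changes was not tested. RLE scaling, leaving out mitochondrial genes and testing without the filter gave 1 call each in the shared fit.

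Sgk1, the 1 gene called in the shared fit, kept its direction in these settings. Of the 23 lists whose medians were recomputed, 3 without a called gene had medians that crossed 0: ER chaperones (0.08) came to -0.2 without nephrectomy 4, mitochondrial genes (-0.13) to 0.03 without sham 1 and the amino acid response (-0.12) to 0.05 without sham 3. Levels near 1 CPM, as of Cdc45 and Orc1, rest on few counts, and 4 libraries a group limit every test.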
